A study of Arabidopsis thaliana with 6 samples.

Results

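The genes described here encode the nuclear side of the photosynthetic apparatus of Arabidopsis thaliana. They are 43 of the 27978 rows of a gene-level RNA-seq count table, chosen by locus code from their known functions. The choice used no measured level, but earlier results of these data were known when it was made. They comprise 14 genes of the photosystem II antenna (LHCB1 to LHCB6), 6 of the photosystem I antenna (LHCA1 to LHCA6), the 4 Rubisco small subunit genes with Rubisco activase (RCA), 7 photosystem II subunit genes and 11 photosystem I subunit genes. The libraries came from wild-type Columbia plants, 2 per group. One group received melatonin (MT) at 10 nM, one received the auxin indole-3-acetic acid (IAA) at 1 nM, and the control group received 0.1% ethanol, in which both compounds had been dissolved. Plants were 4 days old when moved to these plates, and the titles of all samples give 7 days of treatment. All were grown on medium with 3% sucrose under 16 hours of light and 8 hours of dark, at 100 µmol photons per square metre and second. By its title the study asks how melatonin promotes root growth and whether this depends on IAA. The MT and IAA doses differ, and MT against IAA is therefore no comparison of equal doses.

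Light-harvesting proteins bind chlorophyll and pass absorbed energy to the reaction centres, where the core proteins, many of them encoded in the plastid, drive electron transfer. The nuclear genes for antenna, subunits and Rubisco are known to be transcribed together in light-grown green tissue, and to respond to light, the circadian clock, sugar and signals from the plastid. Rubisco fixes carbon dioxide with plastid-encoded large and nuclear-encoded small subunits, and Rubisco activase removes inhibitory sugar phosphates from its active sites.

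Total counts ran from 40087221 to 65558371 per library. Plastid locus codes took 0.285% of the counts of MT replicate 1, against 0.0196% to 0.0244% in the other 5 libraries. The summed share and the numbers of members lying lower are therefore also given without that library. So are the members' median in MT against control and the fold changes of the root markers that were called. Fits of single members without it are not listed. Both control columns of the count table carry 72 h in their names while their sample titles say 7 days, and the age of the control plants cannot be told apart from treatment in comparisons with control. The sample labels name seedlings and the design text names rosette leaves. Of 18 root marker genes (endodermis, root hair and root meristem), every one had counts. Their summed level was 124 and 89.9 CPM (counts-per-million, scaled to library size) in the MT libraries. It was 91.3 and 99.5 CPM in the IAA libraries, against 70.9 and 78.7 CPM in the control libraries. Total counts were the library size for this sum. SCR gave the largest part of the sum in every library, at 39.7 and 40.1 CPM in MT. It stood at 44.6 and 41.4 CPM in IAA and 41.0 and 38.2 CPM in control. SHR stood at 12.5 and 12.8, 14.5 and 18.6, and 14.3 and 13.8 CPM in the same order. Root marker transcripts were thus counted at a low level in all 6 libraries, beside abundant transcripts of photosynthesis. In such bulk samples, fewer cells of a type and less RNA per cell cannot be told apart.

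Several of the genes are near-identical copies, and the following starts of coding sequence (bases 1 to 90, 5′ to 3′, RefSeq, TAIR10.1) are shown because they set how far the reads of one copy can be told from those of another. The first 3 genes lie next to each other on chromosome 1, and capitals mark the bases at which LHCB1.1 and LHCB1.2 differ from LHCB1.3.
LHCB1.3: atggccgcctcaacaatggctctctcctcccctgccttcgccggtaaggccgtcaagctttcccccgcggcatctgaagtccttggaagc
LHCB1.1: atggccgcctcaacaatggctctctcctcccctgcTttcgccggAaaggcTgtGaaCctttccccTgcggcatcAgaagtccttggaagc
LHCB1.2: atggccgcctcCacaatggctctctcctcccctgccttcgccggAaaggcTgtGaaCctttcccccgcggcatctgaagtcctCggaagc
In this stretch LHCB1.1 differs from LHCB1.3 at 7 bases and LHCB1.2 differs at 6. Over the 804 coding bases the numbers of differing bases are 31 and 29, an identity of 96.1% and 96.4%.
The Rubisco small subunit genes RBCS2B and RBCS1B, neighbours on chromosome 5, are closer still, and capitals mark where RBCS1B differs from RBCS2B.
RBCS2B: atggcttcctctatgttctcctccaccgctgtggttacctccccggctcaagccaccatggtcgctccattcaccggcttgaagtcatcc
RBCS1B: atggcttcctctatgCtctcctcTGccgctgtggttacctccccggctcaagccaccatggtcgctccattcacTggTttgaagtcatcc
These copies differ at 5 bases here and at 15 of 546 coding bases, an identity of 97.3%. Windows of each member's transcript were searched for in other genes, leaving out genes that overlap the member in place. Every 100-base window was unique for 34 of 43 genes. The unique share fell under 90% for 2, LHCB2.2 (87.6%) and RBCS3B (87.9%). With 50-base windows 31 genes were wholly unique and 11 were under 90%. Counts of single copies in these families therefore carry an uncertainty from read assignment, and family sums are given beside them. PSAH1 and LHCB2.3 scored 100% in this search although genes on the opposite strand overlap them by 788 and 595 bases.

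The photosynthesis genes made up a large part of every library. Together they took 12.9% and 13.2% of all counts in the MT libraries and 13.7% and 13.6% in the IAA libraries, against 13.5% and 13.2% in the control libraries. The Wilson 95% interval, which covers counting error only, was 12.90% to 12.92% in MT replicate 1 and as narrow in the other libraries. Means were 13.1 ± 0.234% for MT, 13.7 ± 0.0856% for IAA and 13.4 ± 0.249% for control (SD, n = 2 each). Both MT libraries lay below both IAA libraries, and MT and control overlapped. An exact 2-sided permutation test gave p = 0.33 for MT against IAA, p = 0.67 for MT against control and p = 0.33 for IAA against control, where 0.33 is the smallest p that 2 against 2 libraries allow. Without MT replicate 1 the MT share was 13.2%.

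**Figure D1:**
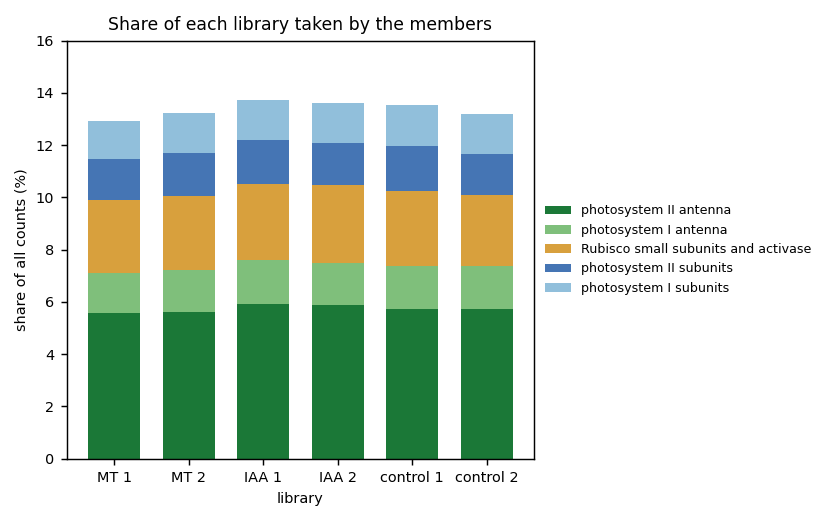
Share of all counts (percent, stacked bars from 0) taken by the 43 genes in each library, coloured by role. The totals run from 12.9% in MT replicate 1 to 13.7% in IAA replicate 1, and the photosystem II antenna is the thickest layer in every library.

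By role, the photosystem II antenna took 5.59% and 5.62% of counts in the MT libraries and 5.91% and 5.89% in the IAA libraries, against 5.73% and 5.73% in control. The 3 groups did not overlap, with IAA highest and MT lowest, and the exact permutation p was 0.33 for each pair. Rubisco small subunits with activase took 2.79% and 2.83% in MT and 2.94% and 2.99% in IAA, against 2.87% and 2.72% in control, so that IAA lay above the other groups while MT and control overlapped. The photosystem I antenna took 1.52% to 1.68% of counts over the 6 libraries, the photosystem II subunits 1.55% to 1.71% and the photosystem I subunits 1.45% to 1.57%.

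Per kilobase of exon (RPKM, the CPM divided by exon length), LHCB1.3 (AT1G29930) was the highest of the 20726 genes ranked in every one of the 6 libraries, at a mean of 10325 ± 466 RPKM (SD over 6 libraries). RBCS1A (AT1G67090) followed at 8756 ± 344 RPKM and LHCB1.5 (AT2G34420) at 7341 ± 416 RPKM. Of the 43 genes, 32 or 33 were among the 50 highest of the genes ranked in a library and 37 or 38 were among the 100 highest. Genes without an exon length in TAIR10.1 were not ranked, among them the plastid locus codes. The low end held LHCB4.3, a rarely used CP29 copy, at 16.1 ± 1.23 RPKM, and LHCA6 and LHCA5, which link photosystem I to the NDH complex, at 79.5 ± 2.75 and 110.4 ± 7.49 RPKM. Median levels by role were 4128 RPKM for the Rubisco group, 2996 RPKM for the photosystem II antenna, 2130 RPKM for the photosystem I antenna, 1545 RPKM for the photosystem I subunits and 1114 RPKM for the photosystem II subunits. The coefficient of variation over all 6 libraries, treatments included, ran from 2.53% for PSBO1 to 9.91% for PSBR, with a median of 5.08%.

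**Figure D2:**
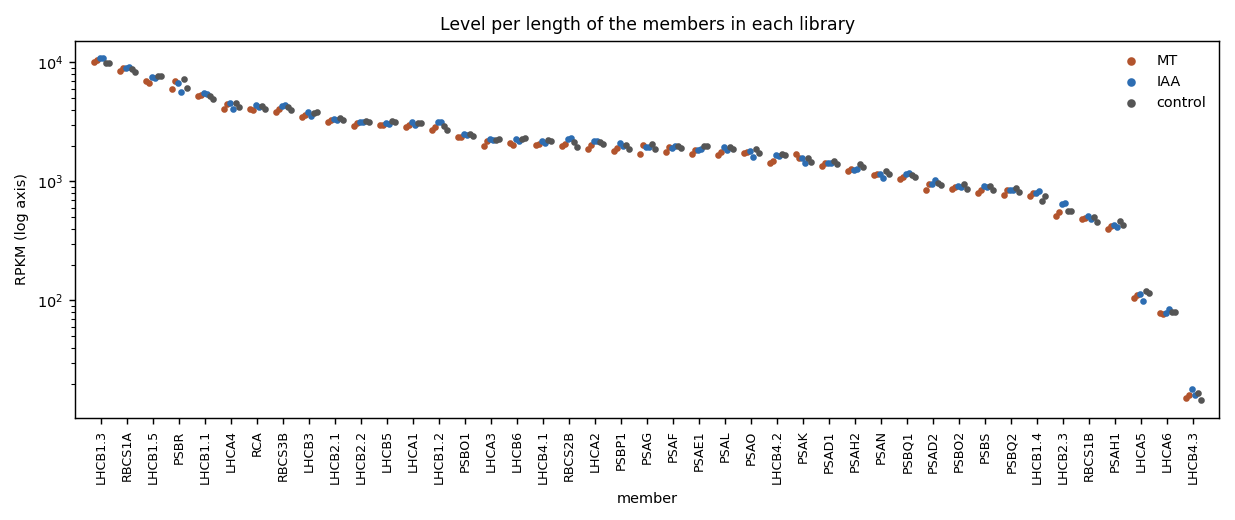
RPKM of each member (log axis) in the 6 libraries, ordered by mean level, with MT, IAA and control points from left to right. All but 3 of the members lie between PSAH1 at 426 RPKM and LHCB1.3 at 10325 RPKM, and LHCA5, LHCA6 and LHCB4.3 lie apart at the low end.

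All 43 genes passed the filter on low counts, and none passed an adjusted p of 0.05 in any comparison (edgeR's quasi-likelihood test, Benjamini-Hochberg over 21267 genes). Over all genes, 0.0188% were called in MT against IAA, 1.89% in MT against control and 0.701% in IAA against control, so at these rates fewer than 1 call among 43 genes is the background. At an unadjusted p under 0.05 the numbers of members were 6 (13.95%) in MT against IAA, 5 (11.6%) in MT against control and 5 (11.6%) in IAA against control. Over all genes the shares were 10.5%, 13.2% and 11.0%, so the members' counts were near the background. limma-voom also called 0 in each. DESeq2 called 1, 2 and 1 members, named below. Over all genes it called 257 of 19205, 823 of 21267 and 470 of 19205, so its calls among the members were near that background. The differences were small. Fitted log2 fold changes ran from -0.29 to 0.10 in MT against IAA, from -0.20 to 0.11 in MT against control and from -0.15 to 0.21 in IAA against control. The 95% interval of every member lay inside a 1.5-fold change in all 3 comparisons. It lay inside 1.25-fold for 39, 42 and 38 of the 43 members.

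Most members lay slightly lower in the MT libraries. Log2 fold changes were negative for 38 of 43 in MT against IAA and for 37 of 43 in MT against control, whereas 21 of 43 were negative in IAA against control. Medians were -0.07, -0.06 and 0.00072 on the log2 scale, against -0.0069, -0.0031 and 0.01 over all genes tested, and the last of these member medians changed sign in 9 of 20 alternative settings. Both MT libraries lay below both IAA libraries for 24 of 43 members (55.8%), where 20.4% of all genes did so, and below both control libraries for 20 of 43 (46.5%), where 22.2% of all genes did. The reverse order, with both MT libraries above, was found for 0 members against IAA (19.8% of all genes) and for 2 against control, LHCB1.3 and LHCB1.4 (22.5%). IAA lay above control for 10 members (23.3%) and below it for 8 (18.6%), against 23.6% and 20.2% of all genes. The members are read from the same 6 libraries and are not independent of each other, and comparisons with the same control or MT libraries share them.

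MT replicate 1 contributed more to these counts than MT replicate 2. Without MT replicate 1, the remaining MT library lay below both IAA libraries for 25 of 43 members, where 34.2% of all genes did, and below both control libraries for 21 of 43, where 35.8% did. Without MT replicate 2 the corresponding numbers were 36 of 43 (38.1% of all genes) and 32 of 43 (39.0%). The median log2 fold change in MT against control was -0.12 without MT replicate 2 and -0.11 without control replicate 2, and came closest to 0, at -0.02, without MT replicate 1 among the fits that left out 1 library. The root marker sum and the plastid share, given above, were also highest in MT replicate 1, and their part in these differences was not tested.

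**Figure D3:**
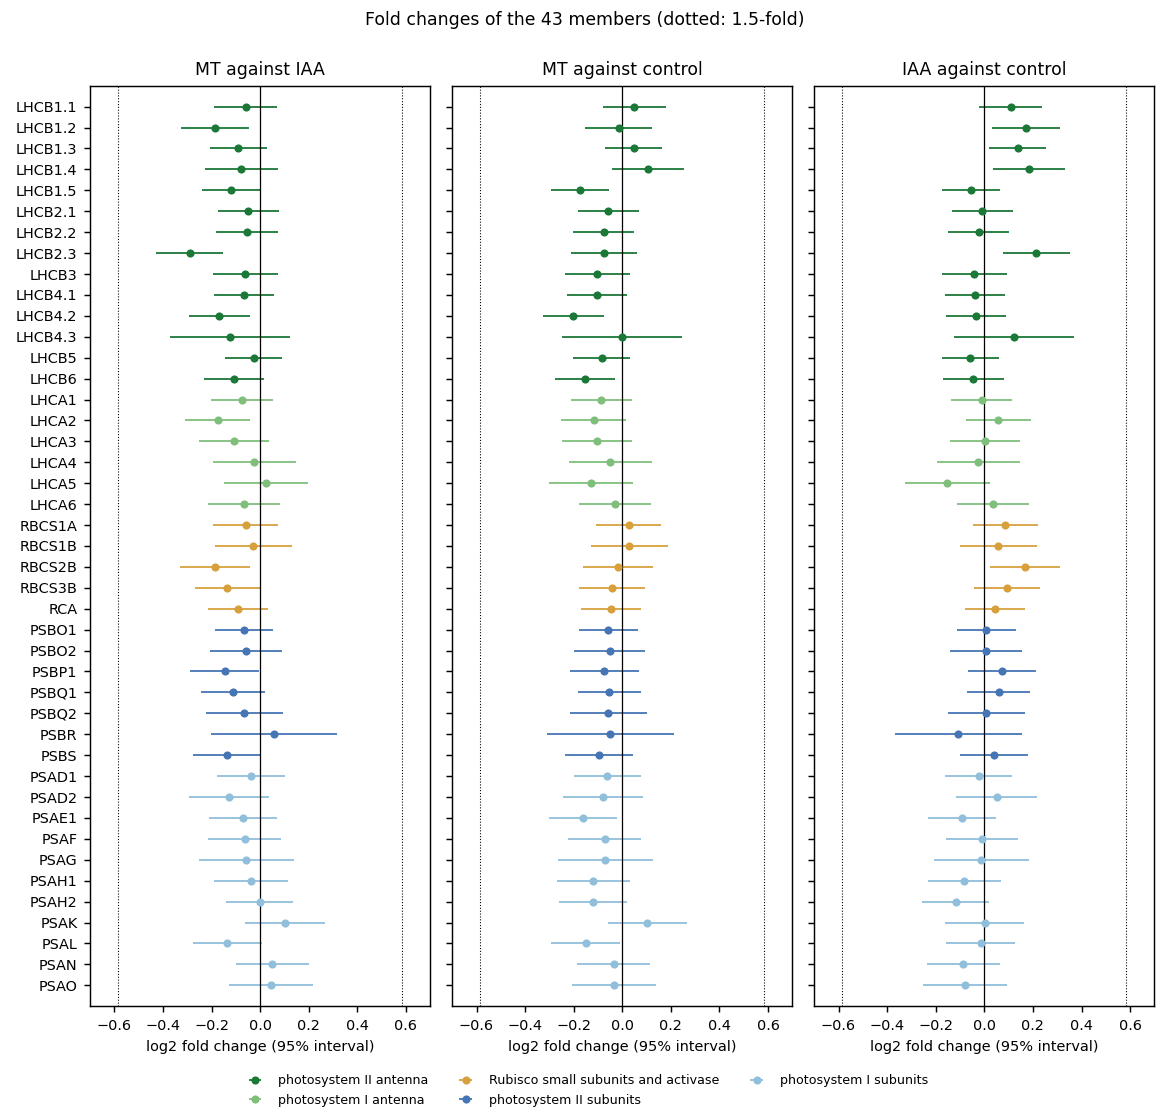
Log2 fold change (points) with its 95% interval (lines) for the 43 members in MT against IAA, MT against control and IAA against control, coloured by role, with dotted lines at a 1.5-fold change. No interval reaches the dotted lines, and 38 and 37 of the 43 points lie left of 0 in the comparisons of MT with IAA and with control.

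The trimeric light-harvesting complex of photosystem II is built from LHCB1, LHCB2 and LHCB3. The 5 LHCB1 copies summed to 30754 and 31276 CPM in the MT libraries and 33443 and 33071 CPM in the IAA libraries, against 31632 and 30913 CPM in control. The IAA libraries were the highest, and MT and control overlapped. The family sum differed by a log2 fold change of -0.10 ± 0.051 (SE) in MT against IAA (edgeR adjusted p = 0.525), -0.01 ± 0.051 in MT against control (adjusted p = 0.953) and 0.09 ± 0.051 in IAA against control (adjusted p = 0.59).

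In the split of the LHCB1 counts between copies, LHCB1.5 and LHCB1.3 differed between control and the treated libraries. LHCB1.5 made up 23.7% and 22.5% of the family's counts in the MT libraries and 23.6% and 23.1% in the IAA libraries, against 25.6% and 26.1% in control. LHCB1.3 made up 40.1% and 41.0% in MT and 39.9% and 40.5% in IAA, against 38.5% and 39.3% in control. Both treatments thus had a lower share of LHCB1.5 and a higher share of LHCB1.3 than control, with no overlap between either treatment and control. The other copies overlapped between control and a treatment. No test was applied to these shares, which rest on 2 libraries a group. Shares within a family depend on each other, so these differences are not separate observations. LHCB1.5 stood at 7284 and 7034 CPM in MT and 7894 and 7653 CPM in IAA, against 8091 and 8073 CPM in control. It was lower in both treatments in every library, with MT lowest. Its log2 fold change in MT against control was -0.17 ± 0.053 (SE), adjusted p = 0.188 with edgeR's quasi-likelihood test, while DESeq2 gave -0.17 with an adjusted p of 0.0478. LHCB1.5 lies apart from the cluster on chromosome 1, next to LHCB1.4, and its coding sequence is 91.4% identical to that copy. An annotated lncRNA on the opposite strand, AT2G08665, overlaps LHCB1.5 by 1045 bases and has no counts in the table used here, so its reads cannot be told from those of LHCB1.5 unless strand was used in counting.

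The other LHCB1 copies had positive log2 fold changes in IAA against control, none called. LHCB1.3 stood at 12317 and 12808 CPM in MT and 13345 and 13403 CPM in IAA, against 12177 and 12148 CPM in control, with both IAA libraries above all others. These values were 0.18 for LHCB1.4, 0.17 for LHCB1.2, 0.14 for LHCB1.3 and 0.11 for LHCB1.1, with adjusted p from 0.346 to 0.548 (edgeR). In MT against control the same 4 genes had 0.11, -0.01, 0.05 and 0.05. LHCB1.2 had -0.19 ± 0.061 (SE) in MT against IAA (edgeR adjusted p = 0.3585).

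LHCB2.3 (AT3G27690) gave the lowest p of all members in MT against IAA and in IAA against control. It stood at 753 and 813 CPM in MT and 950 and 964 CPM in IAA, against 823 and 827 CPM in control. IAA was the highest group and MT the lowest, with no overlap among the 3. Its log2 fold change was -0.29 ± 0.060 (SE) in MT against IAA (edgeR adjusted p = 0.208) and 0.21 ± 0.060 in IAA against control (edgeR adjusted p = 0.223). DESeq2 called both, at -0.28 with an adjusted p of 0.00202 and at 0.21 with an adjusted p of 0.0386. LHCB2.3 made up 8.86% and 9.06% of the LHCB2 counts in MT and 10.2% and 10.6% in IAA, against 8.91% and 9.12% in control, whereas the family sum had log2 fold changes of -0.07, -0.07 and 0.01 in the 3 comparisons, none called. LHCB2.1 and LHCB2.2, the more abundant copies, had log2 fold changes between -0.08 and -0.01 in all 3. A gene on the opposite strand overlaps 595 bases of LHCB2.3, and its counts came to 3.93% of those of LHCB2.3.

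The minor antenna proteins CP29 (LHCB4), CP26 (LHCB5) and CP24 (LHCB6) connect the trimers to the photosystem II core. LHCB4.2 (AT3G08940) gave the lowest p of all members in MT against control. It stood at 1966 and 2039 CPM in MT and 2283 and 2218 CPM in IAA, against 2313 and 2294 CPM in control. The MT libraries were below all others, and IAA lay just below control. The log2 fold change was -0.20 ± 0.055 (SE) in MT against control (edgeR adjusted p = 0.142) and -0.17 ± 0.055 in MT against IAA (adjusted p = 0.357), and DESeq2 called the first of these (adjusted p = 0.013). LHCB4.2 made up 40.8% and 41.3% of the LHCB4 counts in MT and 42.7% and 42.8% in IAA, against 42.4% and 42.98% in control. LHCB6 stood at 2512 and 2436 CPM in MT and 2717 and 2616 CPM in IAA, against 2743 and 2759 CPM in control, with a log2 fold change of -0.15 ± 0.055 in MT against control (edgeR adjusted p = 0.27). LHCB3, LHCB4.1 and LHCB5 had log2 fold changes of -0.10, -0.10 and -0.09 in MT against control, and LHCB4.3, with at most 25.9 CPM, had 0.00 ± 0.109.

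**Figure D4:**
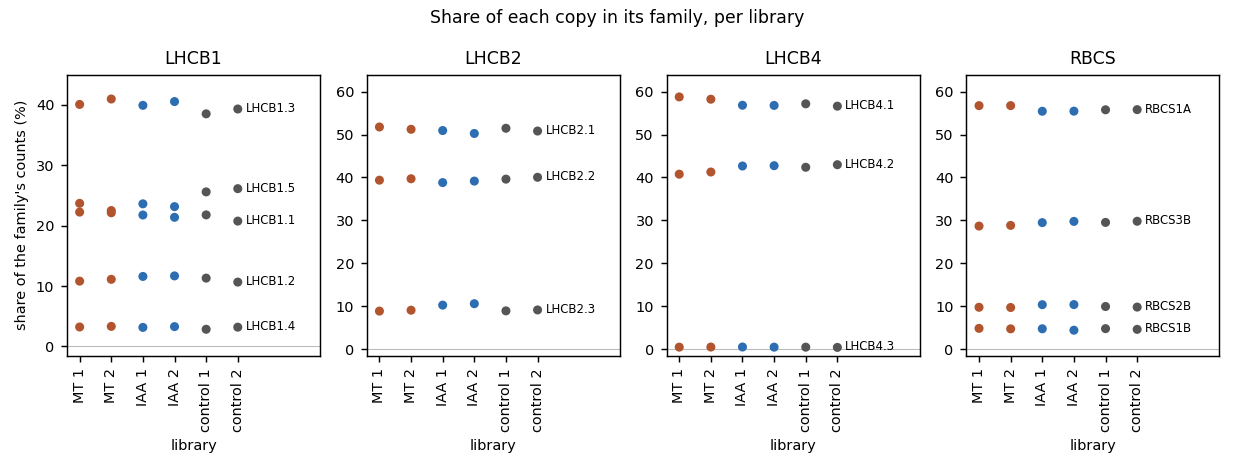
Share (percent) of each copy in the counts of its family for LHCB1, LHCB2, LHCB4 and the Rubisco small subunits, with points for the libraries of MT, IAA and control from left to right. LHCB1.5 is at 25.6% and 26.1% in control and at 22.5% to 23.7% in the treated libraries, and LHCB2.3 is at 10.2% and 10.6% in the IAA libraries and near 9% in the others.

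Sequence upstream of the start is shown for the antenna genes with the lowest p in the 3 comparisons (250 bases before the annotated start, plus strand, RefSeq, TAIR10.1), so that the motifs named next can be read in place. Capitals mark motif matches.
LHCB2.3 (chr3:10255656-10255905): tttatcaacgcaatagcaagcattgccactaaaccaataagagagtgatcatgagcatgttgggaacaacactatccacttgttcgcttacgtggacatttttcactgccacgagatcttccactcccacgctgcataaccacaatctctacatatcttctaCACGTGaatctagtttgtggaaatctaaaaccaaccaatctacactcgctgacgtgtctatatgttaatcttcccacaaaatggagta
LHCB4.2 (chr3:2717307-2717556): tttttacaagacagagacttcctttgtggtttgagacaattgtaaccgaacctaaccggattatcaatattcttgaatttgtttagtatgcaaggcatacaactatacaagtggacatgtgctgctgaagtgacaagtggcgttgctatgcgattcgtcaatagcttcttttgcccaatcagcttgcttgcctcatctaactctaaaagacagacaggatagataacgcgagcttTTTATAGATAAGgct
LHCB2.3 holds a G-box (CACGTG, a site of light-regulated bZIP and bHLH factors). LHCB4.2 holds an I-box (GATAAG) directly after a TATA match (TATAAA, read here on the other strand). Both strands of the same 250-base window were searched in all 43 members and in 27443 promoters of the annotation. The G-box occurred in 8 members (18.6%) and in 6.49% of all promoters, and the I-box in 11 members (25.6%) and in 12.3% of all promoters. The clock-related sites were near the level of all promoters. The evening element (AAAATATCT) occurred in 1 member (2.33%) and in 2.36% of all promoters, and the CCA1 site (AAAAATCT or AACAATCT) in 5 members (11.6%) and in 8.39%. TATAAA occurred in 20 members (46.5%) and in 47.3% of all promoters. A match is a description of the letters and does not show a bound site.

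The photosystem I antenna genes LHCA1 to LHCA4 encode the belt of chlorophyll proteins on one side of the photosystem I core. All 6 LHCA genes had negative log2 fold changes in MT against control, from -0.13 to -0.03, and for 5 of them both MT libraries lay below both control libraries, as for 22.2% of all genes. LHCA2 (AT3G61470) had the lowest p of the 6 in MT against IAA. It stood at 2620 and 2825 CPM in MT and 3080 and 3069 CPM in IAA, against 3001 and 2908 CPM in control, with MT below all other libraries. Its log2 fold change in MT against IAA was -0.18 ± 0.059 (SE, edgeR adjusted p = 0.371). LHCA5 had the largest decrease of all members in IAA against control, at -0.15 ± 0.076 (adjusted p = 0.524), with 112 and 118 CPM in MT and 121 and 106 CPM in IAA, against 128 and 124 CPM in control. In MT against IAA LHCA5 had 0.02. LHCA1, LHCA3, LHCA4 and LHCA6 had between -0.02 and 0.03 in IAA against control.

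The Rubisco small subunit genes are named by copy. Together they summed to 18921 and 19902 CPM in MT and 20560 and 20829 CPM in IAA, against 20111 and 18651 CPM in control. IAA lay above the other groups, which overlapped, and the family sum was not called in any comparison (edgeR adjusted p = 0.627 in MT against IAA, 0.993 in MT against control and 0.632 in IAA against control). RBCS1A made up 56.7% and 56.8% of these counts in MT and 55.4% and 55.5% in IAA, against 55.8% and 55.8% in control. RBCS2B (AT5G38420) stood at 1844 and 1930 CPM in MT and 2128 and 2161 CPM in IAA, against 1996 and 1826 CPM in control. It was highest under IAA and overlapped between MT and control, with log2 fold changes of -0.18 ± 0.063 (SE) in MT against IAA and 0.17 ± 0.063 in IAA against control (edgeR adjusted p = 0.375 and 0.377). Its share of the family was 9.75% and 9.70% in MT and 10.3% and 10.4% in IAA, against 9.92% and 9.79% in control. RBCS1A, RBCS1B and RBCS3B had log2 fold changes between 0.06 and 0.09 in IAA against control, and between -0.14 and -0.03 in MT against IAA. RBCS1B had 0.03 in MT against control. RCA stood at 8557 and 8406 CPM in MT and 9153 and 8928 CPM in IAA, against 8990 and 8527 CPM in control, with a log2 fold change of 0.05 ± 0.054 in IAA against control (adjusted p = 0.824).

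PSBO, PSBP and PSBQ form the oxygen-evolving cap on the lumen side of photosystem II, PSBR helps to hold it, and PSBS triggers the heat dissipation of excess light. In MT against control all 7 genes had negative log2 fold changes, from -0.10 for PSBS to -0.05, and none had an unadjusted p under 0.05. PSBP1 had the lowest p of them in MT against IAA, at -0.15 ± 0.062 (SE, edgeR adjusted p = 0.458). It stood at 2436 and 2566 CPM in MT and 2838 and 2700 CPM in IAA, against 2720 and 2546 CPM in control, so that MT lay below IAA and overlapped with control. The pairs PSBO1 and PSBO2, and PSBQ1 and PSBQ2, split their counts alike in all groups, with PSBO1 at 74.9% to 76.1% and PSBQ1 at 50.2% to 52.1% of the pair over all libraries.

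PSBR (AT1G79040) varied most between libraries of one group. It stood at 4687 and 5448 CPM in MT and 5299 and 4444 CPM in IAA, against 5726 and 4766 CPM in control. The replicates of every group differed by more than the group means, and the SE of its log2 fold change, 0.115 in each comparison, was the largest of the 43 genes. Its fold change was 0.06 in MT against IAA, -0.05 in MT against control and -0.11 in IAA against control (log2 scale).

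**Figure D5:**
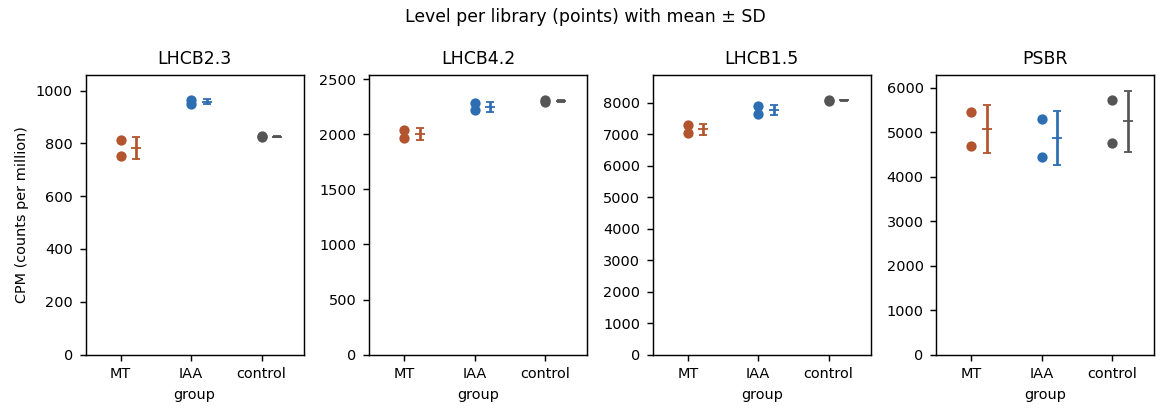
CPM of LHCB2.3, LHCB4.2, LHCB1.5 and PSBR in MT, IAA and control, with points for the 2 libraries of each group and a bar for the mean ± SD. The groups separate for the 3 antenna genes, and they overlap for PSBR, whose replicates differ in every group.

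On photosystem I, PSAD, PSAE and PSAF dock ferredoxin and plastocyanin, PSAG and PSAK border the antenna, and PSAH, PSAL and PSAO take part in binding mobile light-harvesting complex. Of these 11 genes 10 had negative log2 fold changes in MT against control. PSAE1 had -0.16 ± 0.062 (SE, edgeR adjusted p = 0.305) and PSAL had -0.15 ± 0.062 (adjusted p = 0.348). PSAE1 stood at 1352 and 1476 CPM in MT and 1468 and 1502 CPM in IAA, against 1583 and 1581 CPM in control. Both treatments lay below control for it, and MT and IAA overlapped. Its log2 fold change in IAA against control was -0.09 ± 0.062 (edgeR adjusted p = 0.656). A gene on the opposite strand that overlaps PSAE1 by 9 bases had counts equal to 5.13% of those of PSAE1, and another, AT4G28755, overlaps it by 436 bases with no counts in the table used here.

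PSAK (AT1G30380) was the member of this role with a positive value in MT against control. It stood at 1293 and 1197 CPM in MT and 1214 and 1106 CPM in IAA, against 1198 and 1121 CPM in control, overlapping between groups, with a log2 fold change of 0.10 ± 0.072 (SE) in MT against control (edgeR adjusted p = 0.603) and the same in MT against IAA. PSAH2 had -0.12 ± 0.061 in IAA against control (adjusted p = 0.539), the second largest decrease there after LHCA5. PSAN and PSAO had 0.05 and 0.04 in MT against IAA and -0.09 and -0.08 in IAA against control. PSAD1 held 62.6% to 65.4% of the PSAD pair and PSAH2 held 61.0% to 62.5% of the PSAH pair over all libraries.

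Genes around the photosynthetic apparatus were compared in the same fit. None was called by edgeR among 23 genes of chlorophyll synthesis, 10 further photosystem genes, 13 of electron transport and ATP synthase, 15 of the Calvin cycle, 21 regulators of light response and greening, 11 clock genes and 15 genes of antenna insertion and regulation. Median log2 fold changes in MT against control were -0.02, -0.14, -0.04, -0.04, -0.09, 0.15 and -0.06 in that order, against -0.0031 over all genes. In MT against IAA, 19 of the 23 chlorophyll synthesis genes were negative (median -0.10), as were 10970 of all 21267 genes. Of the 11 clock genes, 6 had an unadjusted p under 0.05 there with edgeR, where 10.5% of all genes did. For 7 of them both MT libraries lay above both IAA libraries (19.8% of all genes) and for 2 below (20.4%). The clock median was 0.19, against -0.0069 over all genes. Like the members, the clock genes are read from the same libraries and are not independent of each other.

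The genes with the lowest p of each list in MT against control were PORA (a light-dependent protochlorophyllide reductase, 0.47), LHCB7 (-0.26), PETE1 (plastocyanin, -0.23), RPE (a Calvin cycle epimerase, -0.12), GNL (a GATA factor of greening, -0.46), TOC1 (a clock repressor, 0.32) and OHP2 (a one-helix antenna relative, -0.27), with adjusted p from 0.104 to 0.441 (edgeR, log2 fold changes in brackets). In IAA against control they were DVR (divinyl reductase, 0.26), PSBX (-0.21), PGRL1A (cyclic electron flow, -0.13), PDTPI (plastid triose-phosphate isomerase, 0.10), SIG5 (a plastid sigma factor, -0.25), PRR7 (a clock repressor, -0.18) and ELIP2 (an early light-induced protein, -0.28), with adjusted p from 0.137 to 0.604. In MT against IAA they were GSA2 (-0.15), PSBP2 (-0.43), FD1 (a ferredoxin, -0.21), HCEF1 (plastid fructose bisphosphatase, -0.13), BBX22 (a B-box regulator, 0.38), PRR7 (0.25) and TAP38 (a phosphatase of the antenna, 0.14), with adjusted p from 0.208 to 0.475. DESeq2 called GNL in MT against control, PSBX and SIG5 in IAA against control, and BBX22 and PRR7 in MT against IAA.

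GLK1 and GLK2 are transcription factors that activate light-harvesting genes, and HY5 is a bZIP factor of light signalling. GLK2 stood at 295 and 345 CPM in MT and 356 and 336 CPM in IAA, against 378 and 360 CPM in control. MT lay below control and overlapped with IAA, with a log2 fold change of -0.21 ± 0.082 (SE) in MT against control (edgeR adjusted p = 0.329). GLK1 had -0.12 ± 0.111 and HY5 had 0.13 ± 0.111 in the same comparison (adjusted p = 0.72 and 0.694).

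In contrast to the nuclear genes, 12 plastid locus codes of the photosynthetic apparatus, which the annotation used here does not name, were high in 1 library. Their summed level was 2406 and 102 CPM in MT and 93.4 and 134 CPM in IAA, against 86.6 and 96.9 CPM in control. MT replicate 1 stood alone, and none of the 12 was called. The lowest p in MT against control was that of ATCG00020, at 1474 and 31.1 CPM in MT and 27.1 and 38.6 CPM in IAA, against 26.3 and 27.7 CPM in control (edgeR adjusted p = 0.143). ATCG00350 had the lowest p in IAA against control (log2 fold change 0.65, adjusted p = 0.878) and ATCG00710 in MT against IAA (3.65, adjusted p = 0.314). With all organelle genes left out of the fit, the nuclear members had a largest log2 fold change of 0.20 in size in MT against control, as with them.

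Of the 18 root markers, 2 were called higher and none lower in MT against control, and none in the other comparisons (edgeR). Over all 21267 genes, 355 were called higher and 48 lower in MT against control. The numbers were 1 and 3 in MT against IAA, and 124 and 25 in IAA against control. CASP1, of the Casparian strip, stood at 12.2 and 5.69 CPM in MT and 4.66 and 6.87 CPM in IAA, against 1.74 and 2.93 CPM in control, with a log2 fold change of 1.95 ± 0.385 (SE, edgeR adjusted p = 0.0479). LRX1, of the root hair wall, stood at 5.16 and 3.34 CPM in MT and 3.69 and 3.51 CPM in IAA, against 1.26 and 1.81 CPM in control, with 1.47 ± 0.288 (adjusted p = 0.0447). Both MT libraries lay above both control libraries for each, as for 22.5% of all genes. Without MT replicate 1 the log2 fold changes were 1.29 for CASP1 and 1.12 for LRX1. Neither call held without MT replicate 1, or with either control library or either IAA library left out. Both were also lost with limma-voom, with a replicate block and in a fit of the 2 groups compared. CASP1 was lost as well with library totals only and with the filter at 5 CPM. LRX1 had the lowest p of the list in IAA against control (1.23, edgeR adjusted p = 0.14), where DESeq2 called it at an adjusted p of 0.0151. MYB36, an endodermal regulator, had the lowest in MT against IAA (1.296, edgeR adjusted p = 0.208), where DESeq2 called it at an adjusted p of 0.00492. The median of the 18 genes was 0.32 in MT against IAA, 1.28 in MT against control and 0.63 in IAA against control (log2 scale). These medians are not given without MT replicate 1. In MT against control 17 of the 18 values were positive, as were 10491 of all 21267 genes. SCR, the most abundant, had 0.01, and SHR had the only negative value, -0.15. The part of root RNA in the lower levels of the photosynthesis genes in MT was not tested.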

How the data were processed

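RNA-seq read counts of 6 libraries (2 each of MT, IAA and control, grouped by sample title) were analysed. The authors deposited whole-number counts per gene with no normalization. Per the submitters' processing notes, the tools were Bowtie2 2.2.3 and TopHat2 2.0.12, with HTSeq 0.6.1 and also DESeq. Build, annotation and strand setting are not given in the labels or file, so reads of overlapping genes cannot be told apart. No label ties replicates to separate cultures, and p-values then reflect only how far these samples spread, which can be technical.

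Counts of 21267 genes passing filterByExpr (6711 removed) were scaled by TMM factors (0.986 to 1.016) and fitted with edgeR 4.0.16 (R 4.3.3; glmQLFit and glmQLFTest, all 6 libraries in 1 fit, Benjamini-Hochberg over all genes tested, threshold 0.05). CPM of genes and families uses the effective library size, and RPKM divides it by the exon length in TAIR10.1. Summed CPM of the root markers and of the plastid codes uses total counts. Names, lengths, overlaps and sequences came from TAIR10.1, where 26719 of 27416 locus codes matched. Alternatives were other scalings and filters, DESeq2 1.42.0, limma-voom 3.58.1, a replicate block, summed families, other thresholds and leaving out each library. A count of 3, taken as the floor, is 0.0458 to 0.0748 CPM.

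The members and gene lists were chosen with earlier results of these data known. Every member past the threshold, the 5 largest increases and decreases per comparison, and the gene with the lowest p of each list (or up to 4 past the threshold) were named, with GLK1, GLK2 and HY5 in any case. PSBR, LHCA2, PSBP1 and RCA values were also chosen after being seen. Deviations of same-numbered libraries from their group means correlated at r = 0.0119 (MT and IAA), -0.149 (MT and control) and 0.0328 (IAA and control) across all genes, and at r = 0.0555, -0.263 and 0.456 across the 43 members. No label says that a number marks a shared batch, and with 2 libraries a group the numbers were not taken to pair the libraries.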

Additional observations from a re-analysis of the deposited data

How the results depend on the processing

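Under 3 other scalings, TMM without the members, removal of organelle genes, 2 other filters, limma-voom, fits of the 2 groups compared, thresholds of 0.01 and 0.1, summed families and leaving out each library, the number of members called stayed at 0 in each comparison. DESeq2 called 1 member in MT against IAA, 2 in MT against control and 1 in IAA against control, and over all genes 257, 823 and 470 against 4, 403 and 149 with edgeR, and the cause was not tested. Labels give the groups the same replicate numbers. With a replicate block 0 members were called in each comparison, and 5, 351 and 137 genes in all. A crossed block of control and MT, chosen after seeing the data, called 3 members and 1327 genes in MT against control. The median log2 fold change of the members ranged from -0.0955 to -0.0432 in MT against IAA, from -0.121 to -0.0233 in MT against control and from -0.0399 to 0.0257 in IAA against control when 1 library was left out. Under the other settings it ranged from -0.0708 to -0.0511, from -0.0733 to -0.0404 and from -0.0104 to 0.00567. Called genes without a filter numbered 13, 582 and 268, and with 1 library left out they ranged from 0 to 55, from 112 to 447 and from 17 to 109. No called value changed sign. Uncalled single-gene values changed sign in 99 of 3203 cases, with a size of at most 0.118 as reported, and the median of IAA against control did so in 9 of 20. Of single-gene values under the alternatives, 3059 stayed, 104 moved, 20 gained a call and 20 lost one, the last all for CASP1 and LRX1.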
